A study of Mus musculus with 8 samples.

Results

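The transcripts of 10 genes of macrophages and of antigen presentation were followed in sorted muscle stem cells (MuSCs) of mice fed a diet without vitamin A (VA-free) or normal chow (control). The genes were a list of names, with no threshold on a measured value, and comprised Cd74, H2-Aa, H2-Ab1 and H2-Eb1 of the MHC class II pathway and Lyz2, Cd68, Adgre1, Csf1r, C1qa and C1qb of macrophages. All 10 passed the filter on low counts and so belonged to the 17997 genes tested. The donors were all-male Pax7-CreERT2, Rosa26-nTnG mice of 5 to 6 months, in which 5 tamoxifen injections switch a nuclear tdTomato reporter to nuclear GFP in cells that express Pax7, the transcription factor of MuSCs. Both diets were given for 8 weeks, and viable GFP-positive cells were sorted from gastrocnemius and quadriceps muscles, without antibodies against blood or endothelial cells in this sort. RNA of each animal was divided at the purification column into technical replicates A and B, which yielded libraries 1B, 2A, 3A and 3B of 3 VA-free mice and libraries 1A, 1B, 2A and 2B of 2 control mice.

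MHC class II molecules are pairs of an alpha and a beta chain that present peptides of engulfed proteins to CD4+ T cells, and they are made mainly by macrophages, dendritic cells and B cells. Their genes are switched on by Ciita, a coactivator that docks on a set of promoter boxes bound by the RFX complex and by NF-Y, and interferon-gamma is its best known inducer. Resident macrophages lie between muscle fibers, depend on signaling through Csf1r, clear debris and secrete complement C1q, and MuSCs are not classed among the professional antigen-presenting cells.

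Promoter sequences were at hand for 5 of the 10 genes, in a RefSeq table of GRCm38.p6. Those of H2-Aa and H2-Eb1 are shown because they carry the Y box, the NF-Y site shared by MHC class II genes, in which the letters CTGATTGG were searched on both strands and are set in capitals. Each run holds the 150 bases before the start of the gene, 5′ to 3′ on the strand of the gene.
H2-Aa: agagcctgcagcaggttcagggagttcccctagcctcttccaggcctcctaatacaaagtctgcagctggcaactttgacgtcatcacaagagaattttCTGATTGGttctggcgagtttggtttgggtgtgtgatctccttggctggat
H2-Eb1: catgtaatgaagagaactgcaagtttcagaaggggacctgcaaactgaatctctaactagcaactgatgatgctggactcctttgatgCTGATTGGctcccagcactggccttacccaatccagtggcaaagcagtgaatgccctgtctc
The H2-Aa run lies at chr17:34287824-34287973 on the minus strand, with the box 51 bases before the start, and the H2-Eb1 run lies at chr17:34305717-34305866 on the plus strand, with the box 62 bases before the start. Among 32851 promoters of this length, 3.16% held these letters. They were in none of the promoters of Lyz2, Cd68 and C1qb, and the letters GAGGAA, the core of sites for the myeloid factor PU.1, were in the C1qb promoter, 30 bases before its start, and in 14.5% of all promoters. These matches describe the letters in these windows alone.

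Levels are given as CPM, that is, estimated counts relative to the library total after scaling with TMM factors, and can be compared between libraries for 1 gene. Library totals ran from 44831232 to 88650428 estimated counts. The labelled cell type was checked with 12 MuSC markers, Pax7 among them. Their summed level was 7180 to 7460 CPM in the VA-free libraries and 2560 to 4230 CPM in the control libraries, and 11 of the 12 rose on the VA-free diet. Markers of other cells were also present. The summed level of 12 endothelial markers was 337 to 452 CPM in the VA-free and 2100 to 5800 CPM in the control libraries, and 12 of the 12 fell. The 10 markers of fibro-adipogenic progenitors summed to 16800 to 19100 CPM and 8880 to 15100 CPM, yet 6 of them fell and 1 rose. Most of that sum came from Col3a1 and Gsn, at means of 8450 and 5630 CPM, whereas Dcn and Pdgfra were among the markers that fell. In bulk RNA of this kind, fewer cells of a type and less RNA per cell cannot be told apart.

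Of the 10 genes, 2 fell on the VA-free diet, the lysozyme gene Lyz2 and the lysosomal membrane glycoprotein gene Cd68, and none rose. Over the 17997 genes, 22.5% were lower and 18.9% higher at the same threshold of 0.05, so that 2 of 10 is close to the share among all genes. The log2 fold change was below 0 for 9 of 10 genes, and 5 had an unadjusted p under 0.05 in edgeR's quasi-likelihood test, each of them lower. The count of genes that rose was 0 at an unadjusted p under 0.05 too, and 0 in DESeq2 and in limma-voom. Each VA-free library lay below each control library for 3 genes, H2-Eb1, Lyz2 and Cd68, compared with 21.4% of all genes. Each VA-free mouse lay below each control mouse for 4 genes, the same 3 and H2-Ab1, compared with 32.3% of all genes.

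**Figure D1:**
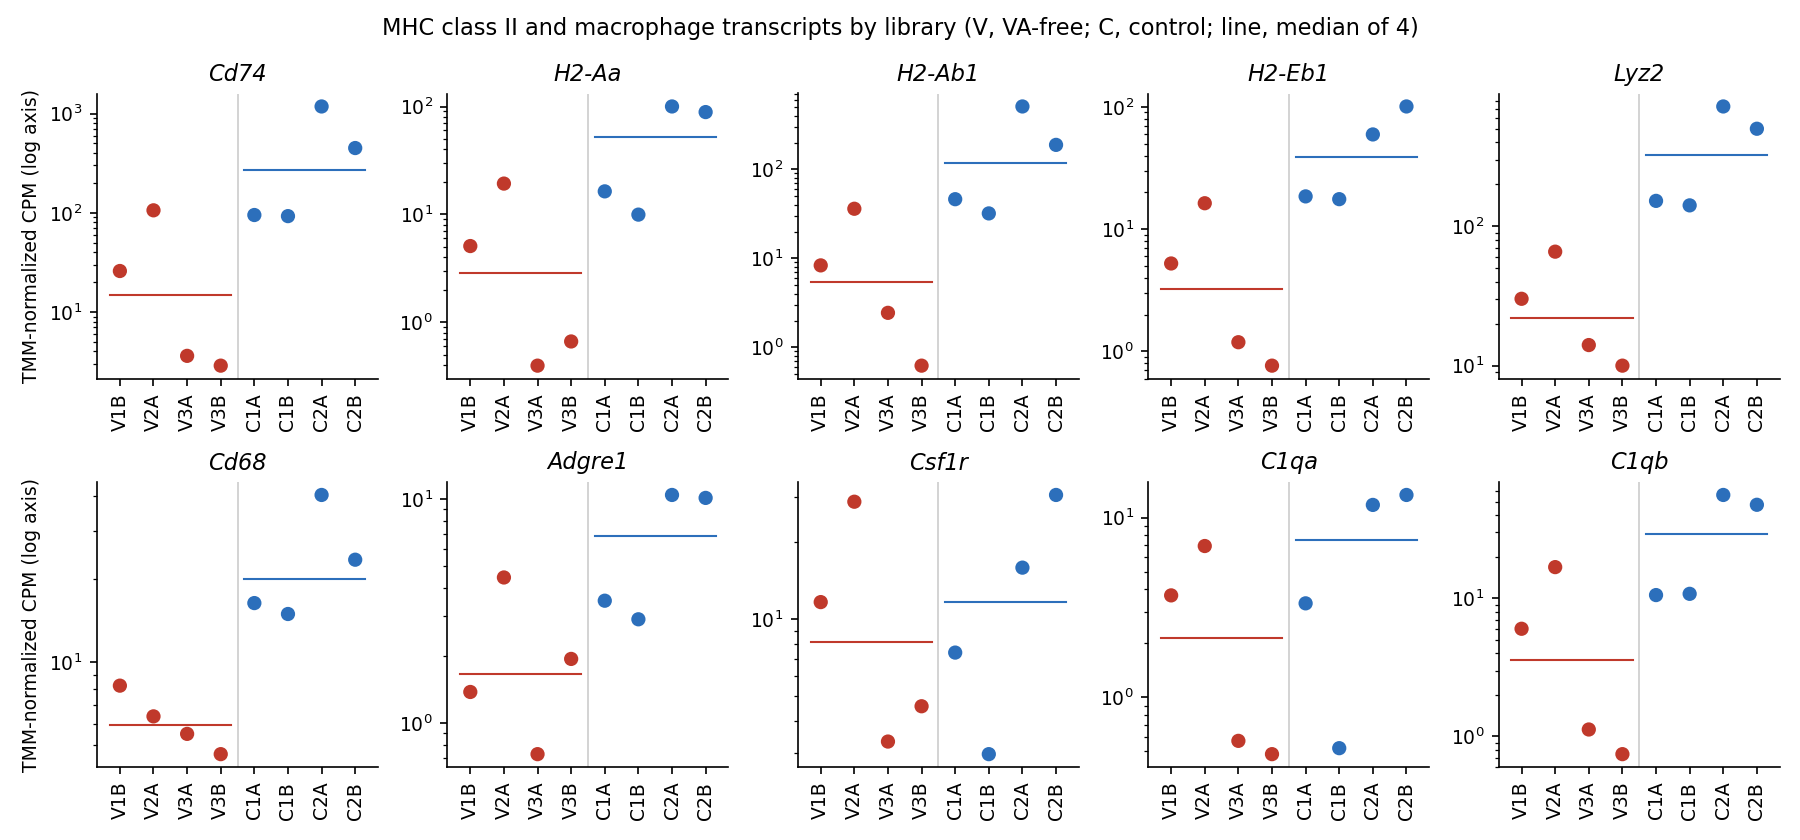
TMM-normalized CPM of the 10 genes (log axes, 1 panel a gene) in the 4 VA-free libraries (red, V) and 4 control libraries (blue, C), with a line at the median of each diet. VA-free 3A and 3B were low and control 2A and 2B high for most genes, and the diets were apart in every library for H2-Eb1, Lyz2 and Cd68.

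Cd74 (chromosome 18) encodes the invariant chain, which guides MHC class II molecules to endosomes and blocks their groove on the way. Its level was 25.9 CPM in VA-free 1B, 106 CPM in VA-free 2A, 3.61 CPM in VA-free 3A and 2.88 CPM in VA-free 3B. In the control libraries it was 94.97 CPM in 1A, 92.6 CPM in 1B, 1180 CPM in 2A and 449.5 CPM in 2B. VA-free 2A lay above both libraries of control mouse 1, so that the diets overlapped. The mean was 45.3 ± 54.0 CPM (SD) over the 3 VA-free mice and 432 ± 474 CPM (SD) over the 2 control mice, with a log2 fold change of -3.26 ± 1.30 (SE) and an adjusted p of 0.0858.

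H2-Aa (chr17:34282744-34287823, minus strand) and H2-Ab1 (chr17:34257689-34269419, plus strand) encode the alpha and beta chains of I-A. The H2-Aa level was 5.09, 19.3, 0.396 and 0.664 CPM in VA-free libraries 1B, 2A, 3A and 3B and 16.4, 9.95, 100.1 and 88.8 CPM in control libraries 1A, 1B, 2A and 2B. As for Cd74, VA-free 2A exceeded control 1A and 1B, and control 2 stood far above the other mice. The log2 fold change of H2-Aa was -2.66 ± 1.23 (SE), with an adjusted p of 0.129. For H2-Ab1 the levels were 8.34, 36.1, 2.44 and 0.624 CPM in the VA-free libraries and 46.2, 32.0, 509 and 188 CPM in the control libraries, in the same order. Here VA-free 2A lay between the libraries of control mouse 1, so that the libraries overlapped, whereas the mice did not (36.2 CPM in VA-free 2 and 40.9 CPM in control 1). The mean of H2-Ab1 was 15.4 ± 18.3 CPM (SD, n = 3 mice) against 184 ± 203 CPM (SD, n = 2 mice), a log2 fold change of -3.60 ± 1.25 (SE) with an adjusted p of 0.0564. Its adjusted p passed the threshold in 10 of 24 alternative settings, among them DESeq2 (0.0421) and the fits without control mouse 1 (0.0321), without VA-free mouse 2 (0.0221), without control 1B (0.0477) and without VA-free 3B (0.0402).

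H2-Eb1 (chr17:34305867-34316674, plus strand) encodes the beta chain of I-E. The VA-free libraries held 5.24 CPM in 1B, 16.3 CPM in 2A, 1.19 CPM in 3A and 0.765 CPM in 3B, and the control libraries 18.5 CPM in 1A, 17.6 CPM in 1B, 59.5 CPM in 2A and 101 CPM in 2B. The highest VA-free library was just under the lowest control library. In TPM, which divides by transcript length and carries no TMM scaling, the diets overlapped, with 33.7 TPM in VA-free 2A and 25.8 TPM in control 1B. The log2 fold change was -2.70 ± 1.02 (SE), with an adjusted p of 0.0731. Between 71.3% and 93.9% of its estimated counts lay on 3 transcripts annotated as not coding, so that the sum over the gene is mostly not the sum over its coding transcripts.

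**Figure D2:**
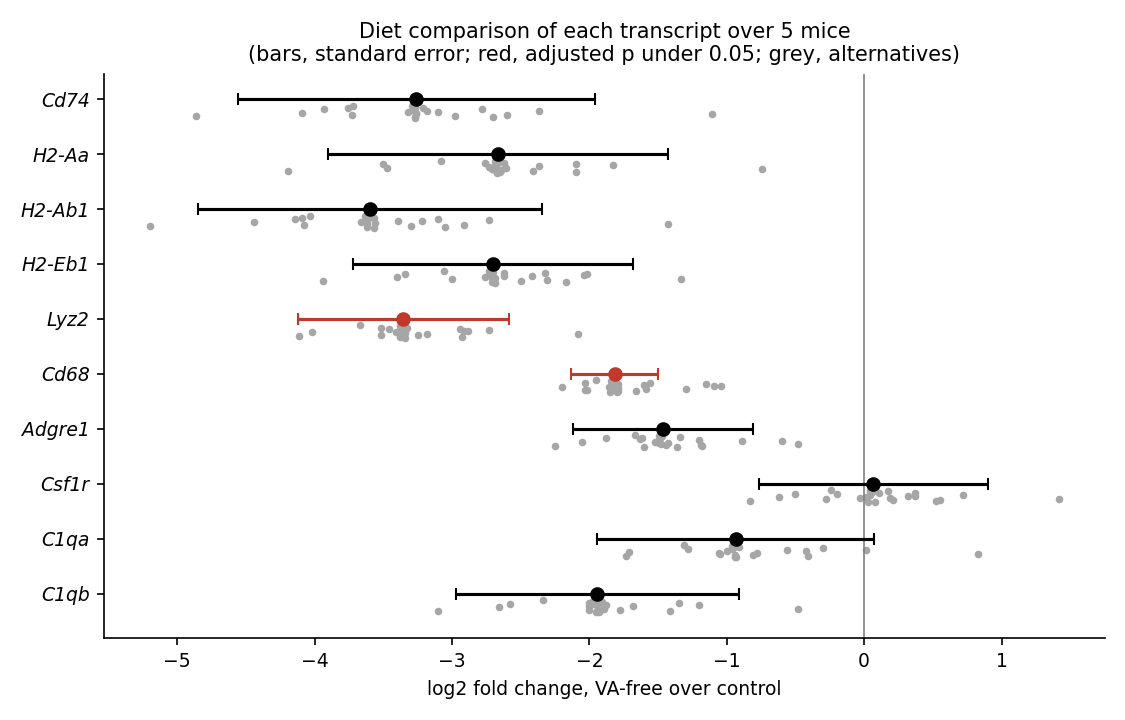
Log2 fold change, VA-free over control, of the 10 genes over 5 mice (large points, with SE bars, red where the adjusted p was under 0.05) and under the alternative settings (grey points). Lyz2 (-3.35) and Cd68 (-1.81) were the 2 genes past the threshold, and Csf1r lay at 0.07 with alternatives on both sides of 0.

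Lyz2 (chr10:117277331-117282321, minus strand) encodes lysozyme M, an enzyme that cleaves bacterial cell walls and is abundant in macrophages and neutrophils. Its level was 30.2 CPM in VA-free 1B, 65.7 CPM in VA-free 2A, 14.0 CPM in VA-free 3A and 9.98 CPM in VA-free 3B. On normal chow it was 152 CPM in 1A, 141 CPM in 1B, 725 CPM in 2A and 502 CPM in 2B. Every VA-free library lay below every control library, with no overlap in TPM either. Lyz2 fell by 3.35 ± 0.77 (SE) on the log2 scale, from 369 ± 307 CPM (SD, n = 2 mice) to 36.3 ± 27.3 CPM (SD, n = 3 mice), with an adjusted p of 0.0123. The call held in 22 of 24 alternatives and was lost without VA-free mouse 1 (-3.25, adjusted p = 0.0530) and without control mouse 2 (-2.08, adjusted p = 0.0710). Of the 31-base words of its transcript, 32.8% also occur in its neighbour and copy Lyz1, whose estimated counts were 0.171% to 3.27% of those of Lyz2, which is the most that a transfer of all Lyz1 counts could add to Lyz2.

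Cd68 (chr11:69664213-69666153, minus strand) encodes a scavenger receptor of macrophage lysosomes. The VA-free levels were 8.24 CPM in 1B, 6.37 CPM in 2A, 5.51 CPM in 3A and 4.65 CPM in 3B, and the control levels 16.4 CPM in 1A, 15.0 CPM in 1B, 40.5 CPM in 2A and 23.6 CPM in 2B. The diets were apart in every library, and among the 10 genes Cd68 spread least within a diet, with a ratio of control mouse 2 to control mouse 1 of 1.87 and of VA-free mouse 2 to VA-free mouse 3 of 1.25. It fell by 1.81 ± 0.32 (SE) on the log2 scale, from 23.4 ± 10.03 CPM (SD, n = 2 mice) to 6.65 ± 1.67 CPM (SD, n = 3 mice), with an adjusted p of 0.00426, and the adjusted p stayed under 0.05 in 24 of 24 alternatives (4.14e-07 to 0.0353). The fall was smaller in some settings, with a log2 fold change of -1.15 with the length trend removed, -1.04 on log2(TPM + 1) and -1.09 on log2(TPM + 0.1). A transcript annotated as not coding, Cd68-203, took 10.5% to 56.8% of the estimated counts of Cd68. Its share was highest in VA-free 3B, with 131 counts beside 74 on the coding Cd68-201. On Cd68-201 alone the VA-free libraries had 74 to 441 counts and the control libraries 496 to 1687.

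Adgre1 (chr17:57358691-57483527, plus strand) encodes F4/80, the surface marker by which mouse macrophages are commonly sorted. Its VA-free levels were 1.38, 4.46, 0.727 and 1.93 CPM in 1B, 2A, 3A and 3B, and its control levels 3.51, 2.90, 10.4 and 10.1 CPM in 1A, 1B, 2A and 2B. VA-free 2A again exceeded both libraries of control mouse 1. The log2 fold change was -1.46 ± 0.65 (SE), with an adjusted p of 0.117, and the adjusted p was 0.0251 without VA-free mouse 2.

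Csf1r (chromosome 18) encodes the receptor for CSF1 and IL-34, on which the survival of most tissue macrophages depends. Levels were 11.7 CPM in VA-free 1B, 28.7 CPM in VA-free 2A, 3.33 CPM in VA-free 3A and 4.57 CPM in VA-free 3B. On normal chow they were 7.40 CPM in 1A, 2.97 CPM in 1B, 15.9 CPM in 2A and 30.5 CPM in 2B. The diets covered the same range, and the lowest library was a control library. The mean was 14.9 ± 12.6 CPM (SD, n = 3 mice) and 14.2 ± 12.2 CPM (SD, n = 2 mice), with a log2 fold change of 0.07 ± 0.83 (SE) and an adjusted p of 0.958, an error too wide to call the diets alike. The gene overlaps Hmgxb3 on the opposite strand over 873 bases, and 843 of the 4671 31-base words of the transcript Csf1r-202 are shared with that gene. The library kit does not mark strand, and Csf1r-202 held 224 of the 227 counts of Csf1r in VA-free 3B and none in control 1B. Without Csf1r-202, in a count chosen after the values were seen, Csf1r was at 3.52, 25.5, 0.969 and 0.0604 CPM in VA-free libraries 1B, 2A, 3A and 3B and at 2.44, 2.97, 5.56 and 23.7 CPM in control libraries 1A, 1B, 2A and 2B. The diets overlapped on this count too, with a log2 fold change of 0.17 ± 1.35 (SE) and an adjusted p of 0.933, and VA-free 3A and 3B were then the lowest libraries.

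C1qa (chr4:136895917-136898803, minus strand) and C1qb (chr4:136880129-136886187, minus strand) are neighbours that encode the A and B chains of C1q, the recognition unit of the classical complement pathway. The C1qa levels were 3.69, 6.95, 0.573 and 0.483 CPM in VA-free libraries 1B, 2A, 3A and 3B and 3.33, 0.521, 11.8 and 13.4 CPM in control libraries 1A, 1B, 2A and 2B. Control 1B was therefore as low as the libraries of VA-free mouse 3, and the diets overlapped. C1qa had a log2 fold change of -0.94 ± 1.01 (SE), with an adjusted p of 0.503. The C1qb levels were 6.02, 16.8, 1.12 and 0.745 CPM in the VA-free libraries and 10.6, 10.8, 56.0 and 47.5 CPM in the control libraries, in the same order. VA-free 2A exceeded control mouse 1 here as well, and the log2 fold change was -1.94 ± 1.03 (SE), with an adjusted p of 0.178.

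Divided by transcript length, the order of the mean level over the 8 libraries was Cd74 (278.5 TPM), Lyz2 (222 TPM), H2-Ab1 (118 TPM), H2-Eb1 (42.4 TPM), H2-Aa (39.3 TPM), C1qb (25.8 TPM), Cd68 (22.8 TPM), C1qa (7.77 TPM), Csf1r (5.25 TPM) and Adgre1 (2.07 TPM). The ranges over libraries of neighbours in this order overlapped in each case. The mean follows the highest libraries, as Cd74 ranged from 4.68 to 1198 TPM and lay above Lyz2 in 2 of 8 libraries, VA-free 2A and control 2A.

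Differences between mice of the same diet were of the order of those between the diets. The ratio of control mouse 2 to control mouse 1 was 1.87 to 8.01 over the 10 genes (median 4.36), and that of VA-free mouse 2 to VA-free mouse 3 was 1.25 to 35.6 (median 14.9). The ratio of the control mean to the VA-free mean was 0.951 to 12 (median 5.04). VA-free mouse 3 was the lowest of the 5 mice for 10 of 10 genes, and control mouse 2 the highest for 9 of 10, Csf1r being highest in VA-free mouse 2. VA-free mouse 2 lay above control mouse 1 for 6 of the 10. Without VA-free mouse 2, 7 genes fell past the threshold (Cd74, H2-Aa, H2-Ab1, H2-Eb1, Lyz2, Cd68 and Adgre1), whereas without VA-free mouse 1, Cd68 was the 1 gene that did. For each of the 7 but Cd68, VA-free mouse 2 was the highest VA-free mouse, so leaving it out lowers the VA-free level. Over all genes, 5953 were called in that fit in both directions together, and the share that was lower was not counted. Without control mouse 2, Cd74 had a log2 fold change of -1.11 and C1qa of 0.83, and the lone control mouse was then assumed to vary like the VA-free mice.

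Technical libraries A and B of 1 mouse came from the same sorted cells and are not replicates of a diet. In control mouse 2, Cd74 had 56724 counts in 2A and 24225 in 2B, a CPM ratio of 2.63 (exact 95% interval 2.59 to 2.67, for counting error only), and H2-Ab1 had a ratio of 2.70 (2.64 to 2.76). H2-Eb1 went the other way, with a ratio of 0.591 (0.564 to 0.618), as did Csf1r with 0.520 (0.477 to 0.567). For 9 of 10 genes the interval in this mouse excluded 1, for 6 above and for 3 below. In control mouse 1 the interval lay above 1 for 5 genes and included 1 for 5, with the widest gap for C1qa, which had 168 counts in 1A and 23 in 1B (ratio 6.39, interval 4.12 to 10.4), while its neighbour C1qb had 532 and 475 counts (ratio 0.98, interval 0.864 to 1.11). In VA-free mouse 3 the counts were low, 18 to 637 in 3A, and the interval included 1 for 5 genes. Genes of the same pathway therefore differed in opposite directions between libraries of 1 RNA sample, by more than counting error. Control 2A also had the lowest summed level of MuSC markers (2560 CPM) and of endothelial markers among the control libraries (2100 CPM), and its part in these values was not tested. Without control 2A, 2 genes fell past the threshold, as with all libraries, and the log2 fold change was -2.60 for Cd74, -2.91 for H2-Ab1, -3.00 for H2-Eb1, -3.18 for Lyz2 and -1.59 for Cd68.

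**Figure D3:**
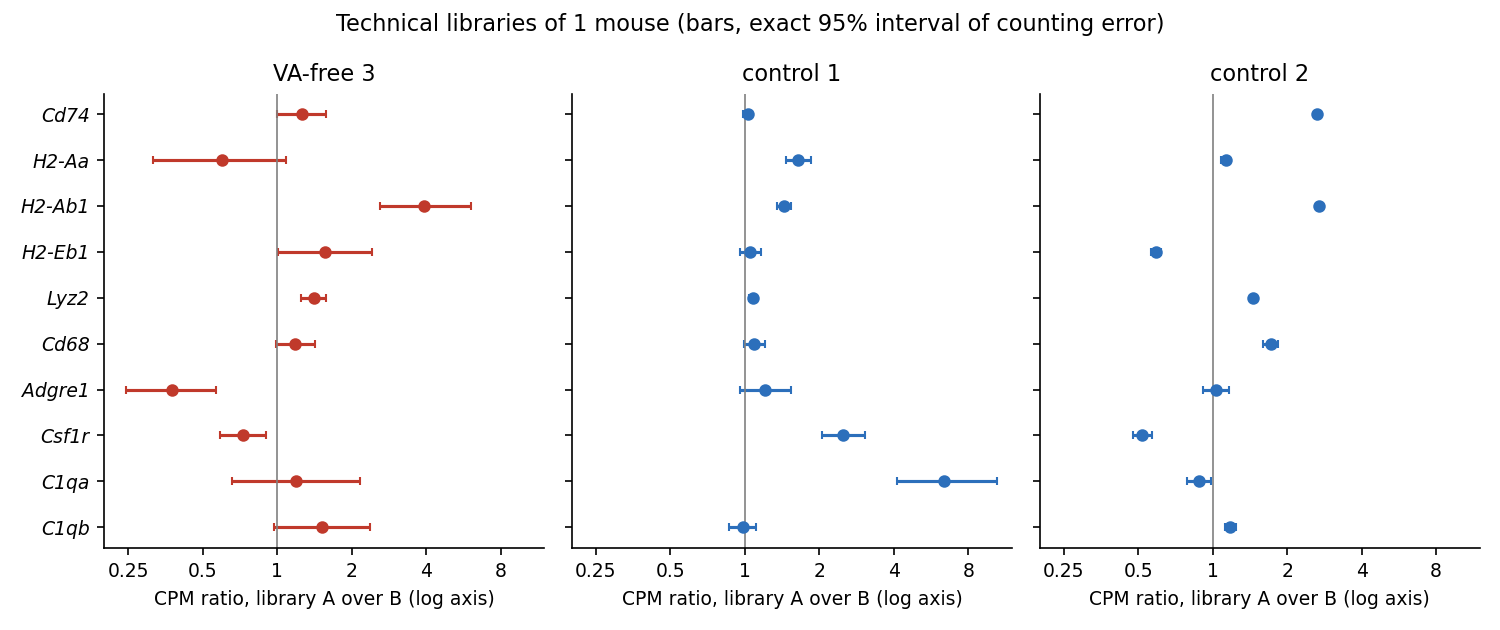
Ratio of CPM in technical library A to library B (log axis) for the 10 genes in the 3 mice with both libraries, with exact 95% intervals for counting error. In control 2 the ratio ran from 0.52 for Csf1r to 2.70 for H2-Ab1, and in control 1 the ratio of C1qa was 6.39.

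Ratios between the genes do not depend on the library total. Of the 45 pairs that the 10 genes form, 19 had ratios of counts that did not overlap between the diets, fewer than the 49.2% among all pairs of genes tested, so no more than a description is drawn from them. Csf1r and C1qa each took part in 6 of these pairs and Cd68 in 0. The ratio of Lyz2 to Csf1r counts was 2.19 to 4.21 in the VA-free libraries and 16.4 to 47.6 in the control libraries. The Csf1r counts in these pairs include Csf1r-202, the transcript that shares sequence with Hmgxb3. Without Csf1r-202 the ratio of Lyz2 to Csf1r overlapped between the diets through VA-free 3B alone, where few counts of Csf1r were left (3 on Csf1r-203). In the other VA-free libraries it stayed below every control library. Csf1r was then at 0.0604 CPM beside 9.98 CPM of Lyz2 in VA-free 3B, and at 23.7 CPM beside 502 CPM in control 2B. The other pairs with Csf1r were not recounted. Within the MHC class II pathway, the ratio of Cd74 to H2-Ab1 was 1.48 to 4.63 and 2.06 to 2.89, respectively, and overlapped.

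Among 14 tested genes of the MHC class II pathway other than the 4 above, 10 fell and 1 rose, beside 22.5% and 18.9% of all genes. Their median log2 fold change was -2.19, beside 0.003 over all genes tested. The peptide-loading genes H2-DMa and H2-DMb1 fell, with log2 fold changes of -2.02 ± 0.45 and -3.53 ± 0.85 (SE, adjusted p = 0.0109 and 0.0154). H2-Ob, a chain of the H2-O inhibitor of loading that is typical of B cells, was at 0.0179 to 0.0320 CPM in the VA-free libraries and 1.43 to 2.45 CPM in the control libraries (adjusted p = 0.000408), with so few counts on the VA-free diet that no fold change is given. Ctss, the protease that trims the invariant chain, fell by 3.73 ± 1.02 on the log2 scale (adjusted p = 0.0243), and Lgmn, the lysosomal protease legumain, fell by 1.18 ± 0.17 (adjusted p = 0.00184). Cd40, a costimulatory receptor, fell by 2.70 ± 0.32 (adjusted p = 0.000926). The count was 5 without control mouse 2 and 6 without VA-free mouse 1.

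The regulators of the pathway did not move in 1 direction. Ciita was at 1.66, 1.07, 1.04 and 0.604 CPM in VA-free libraries 1B, 2A, 3A and 3B and at 1.29, 1.93, 0.25 and 2.62 CPM in control libraries 1A, 1B, 2A and 2B. The diets overlapped, and the log2 fold change was -0.36 ± 0.44 (SE, adjusted p = 0.549). Control 2A had the lowest Ciita and the highest Cd74 and H2-Ab1 of all libraries. That Ciita level lies under 1 CPM, and control 2B, the other technical library of the same mouse, had the highest Ciita. Of the RFX complex, Rfx5 rose by 0.48 ± 0.13 on the log2 scale (adjusted p = 0.0246), Rfxap fell by 0.86 ± 0.12 (adjusted p = 0.00195), and Rfxank had a log2 fold change of 0.25 ± 0.17 (adjusted p = 0.273). In the interferon-gamma list, 7 of 11 tested genes fell and 1 rose, beside 22.5% and 18.9% of all genes, with a median of -0.63. The count that fell was 3 when log2(TPM + 1) or log2(TPM + 0.1) was tested with limma. The chemokine gene Cxcl9 fell by 4.58 ± 0.36 (adjusted p = 0.000325), the receptor gene Ifngr1 fell by 0.91 ± 0.10 (adjusted p = 0.000829) and the GTPase gene Gbp2 fell by 0.74 ± 0.13 (adjusted p = 0.00447), whereas Irf1 and Jak1 had log2 fold changes of -0.55 ± 0.19 and 0.30 ± 0.11 (adjusted p = 0.0527 and 0.0723). Cxcl9 was higher in the libraries of control mouse 1 (25.5 and 28.9 CPM) than in those of control mouse 2 (16.3 and 19.8 CPM), the reverse of the order of the MHC class II genes. Ifng itself was too low to be tested, with a mean of 0.0332 CPM on the control diet and 0 on the VA-free diet.

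**Figure D4:**
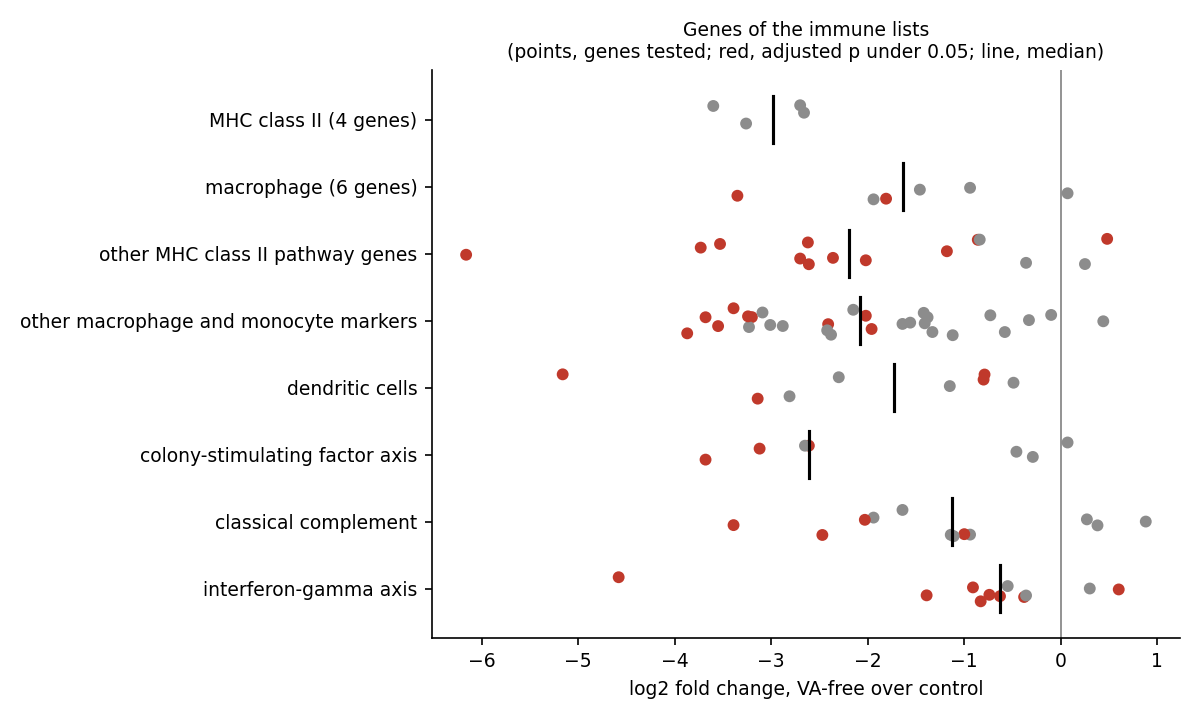
Log2 fold change, VA-free over control, of the tested genes in 8 lists (points, red where the adjusted p was under 0.05), with the median of each list as a line. The median was -2.98 for the 4 MHC class II genes, -1.64 for the 6 macrophage genes and -2.09 for the other macrophage and monocyte markers.

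Of 28 other macrophage and monocyte markers, 9 fell on the VA-free diet, beside 22.5% of all genes. None rose (0 also at an unadjusted p under 0.05, in DESeq2 and in limma-voom), and the median log2 fold change was -2.09. The paired signaling adaptors of myeloid receptors fell, with log2 fold changes of -3.68 ± 0.69 for Tyrobp (adjusted p = 0.00570) and -3.55 ± 0.74 for Fcer1g (adjusted p = 0.00865). Tyrobp was at 0.896, 1.93, 0.198 and 0.342 CPM in VA-free libraries 1B, 2A, 3A and 3B and at 9.25, 9.79, 18.3 and 15.8 CPM in control libraries 1A, 1B, 2A and 2B, so the diets were apart. The monocyte chemokine receptor Ccr2 fell by 3.87 ± 0.91 (adjusted p = 0.0138), the lipopolysaccharide receptor Cd14 fell by 2.02 ± 0.52 (adjusted p = 0.0192) and the pan-leukocyte phosphatase Ptprc fell by 3.20 ± 0.90 (adjusted p = 0.0268). The Fc receptor Fcgr3 and the C chain of C1q, C1qc, had log2 fold changes of -3.01 ± 1.11 (adjusted p = 0.0675) and -1.64 ± 0.94 (adjusted p = 0.212).

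Of the markers of resident macrophages on the list, none of the 6 below passed the threshold. Mrc1, the mannose receptor, was at 3.46, 8.41, 0.132 and 0.463 CPM in VA-free libraries 1B, 2A, 3A and 3B and at 0.436, 0, 3.16 and 8.42 CPM in control libraries 1A, 1B, 2A and 2B. Its log2 fold change was 0.44 ± 1.40 (SE), with an adjusted p of 0.830. Cd163, the hemoglobin scavenger receptor, had 0.859 to 7.73 CPM in the VA-free and 0.907 to 6.44 CPM in the control libraries, a log2 fold change of -0.10 ± 0.93 and an adjusted p of 0.945. Lyve1, Folr2, Cx3cr1 and Timd4 had log2 fold changes of -1.56 ± 0.88, -1.41 ± 0.89, -1.33 ± 0.97 and -0.73 ± 1.74 (adjusted p = 0.202, 0.249, 0.321 and 0.771). For Mrc1 and Cd163 VA-free 2 exceeded control 1, as it did for Cd74, H2-Aa, Adgre1, Csf1r, C1qa and C1qb. This order was therefore not particular to markers of resident macrophages, and the errors are too wide to call the diets alike. Mertk, a receptor for apoptotic cells and the most abundant of the list, had a log2 fold change of -0.33 ± 0.21 (adjusted p = 0.255). The count of 9 was 5 without VA-free mouse 1, 6 without control 2B and 19 without VA-free mouse 2.

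In the colony-stimulating factor list, which includes Csf1r and Tyrobp, 3 of 7 tested genes fell, beside 22.5% of all genes. The Csf1r ligand Il34 fell by 2.61 ± 0.36 (adjusted p = 0.00169) and the shared receptor chain Csf2rb fell by 3.12 ± 0.44 (adjusted p = 0.00186), while the ligand Csf1 had a log2 fold change of -0.46 ± 0.19 (adjusted p = 0.0932). Il34 and Csf2rb were highest in control mouse 1, with 20.5 and 18.8 CPM and 30.8 and 31.3 CPM, against 5.12 and 13.2 CPM and 7.84 and 16.6 CPM in control mouse 2. Of 12 complement genes, C1qa and C1qb included, 4 fell (2 without control 2B), a share to be read beside the 22.5% of all genes that were lower. They were C3, which fell by 2.47 ± 0.20 (adjusted p = 0.000349), C2, which fell by 2.03 ± 0.36 (adjusted p = 0.00461), C1s1, which fell by 1.00 ± 0.22 (adjusted p = 0.0112) and Cd93, a receptor strongly expressed by endothelium, which fell by 3.39 ± 0.27 (adjusted p = 0.000315). The inhibitor Serping1 and the protease C1ra had log2 fold changes of 0.27 ± 0.13 (adjusted p = 0.137) and 0.38 ± 0.15 (adjusted p = 0.0922).

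Other cells that carry MHC class II or Lyz2 were checked by their markers. The counts are small and are to be read beside the 22.5% of all genes that were lower. Of 8 tested dendritic cell markers 4 fell, but the most abundant, Irf8 and Zbtb46, at means of 82.3 and 17.1 CPM, are not confined to dendritic cells, and the defining Itgax was at 0 to 0.0107 CPM in the VA-free and 0.0198 to 1.56 CPM in the control libraries. The count of dendritic markers that fell was 1 without VA-free mouse 1, and likewise without control 2B. The summed level of 7 B cell markers was 1.29 to 2.86 CPM against 4.8 to 21.9 CPM, and 3 of 5 tested fell, with the immunoglobulin heavy chain gene Ighm as the most abundant. That count was 0 without control 2B, without control mouse 2 or without VA-free mouse 1 and 1 without VA-free mouse 2. Neutrophil markers summed to 1.85 to 2.94 CPM and 1.59 to 7.87 CPM, and 0 of 3 tested genes passed the threshold in edgeR, DESeq2 or limma-voom, with 1 lower at an unadjusted p under 0.05 in edgeR and 3 past the threshold without control mouse 1. T and NK cell markers summed to 1.65 to 2.52 CPM and 2.88 to 9.24 CPM (2 of 4 tested fell, 1 without control mouse 2), and mast cell markers to 0 to 4.94 CPM and 0 to 2.27 CPM (0 of 3 passed in any of these tools, 0 also at an unadjusted p under 0.05, and 1 fell without VA-free mouse 2).

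The summed level of the 4 MHC class II genes was 44.6, 178, 7.64 and 4.93 CPM in VA-free libraries 1B, 2A, 3A and 3B and 176, 152, 1850 and 827 CPM in control libraries 1A, 1B, 2A and 2B. That of the 6 macrophage genes was 61.1, 129, 25.3 and 22.4 CPM and 193, 173, 860 and 627 CPM in the same libraries. The 28 other macrophage markers, at 54.1, 114, 32.6 and 31 CPM and 121, 113, 382 and 295 CPM, were likewise highest in control mouse 2 and lowest in VA-free mouse 3. Endothelial markers had another order, with 5570 and 5800 CPM in control mouse 1 and 2100 and 3380 CPM in control mouse 2, and within the VA-free libraries they moved from 337 to 452 CPM only. Of the other cell types listed, 7 of 7 tested Schwann cell markers, 5 of 6 tenocyte markers and 4 of 5 erythroid markers fell. Of 10 markers of fibro-adipogenic progenitors 6 fell and 1, the collagen gene Col3a1, rose, and of 9 of pericytes and smooth muscle 5 fell and 1, Notch3, which is also on the MuSC list, rose. Of 10 myofiber markers 5 fell. Each of these counts is to be read beside the 22.5% of all genes that were lower. Without control 2B, 3 of the pericyte and 3 of the myofiber markers fell. The sums of the 4 MHC class II genes and of the 28 other macrophage markers overlapped between the diets, and the part of sort purity in any of these values was not tested.

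**Figure D5:**
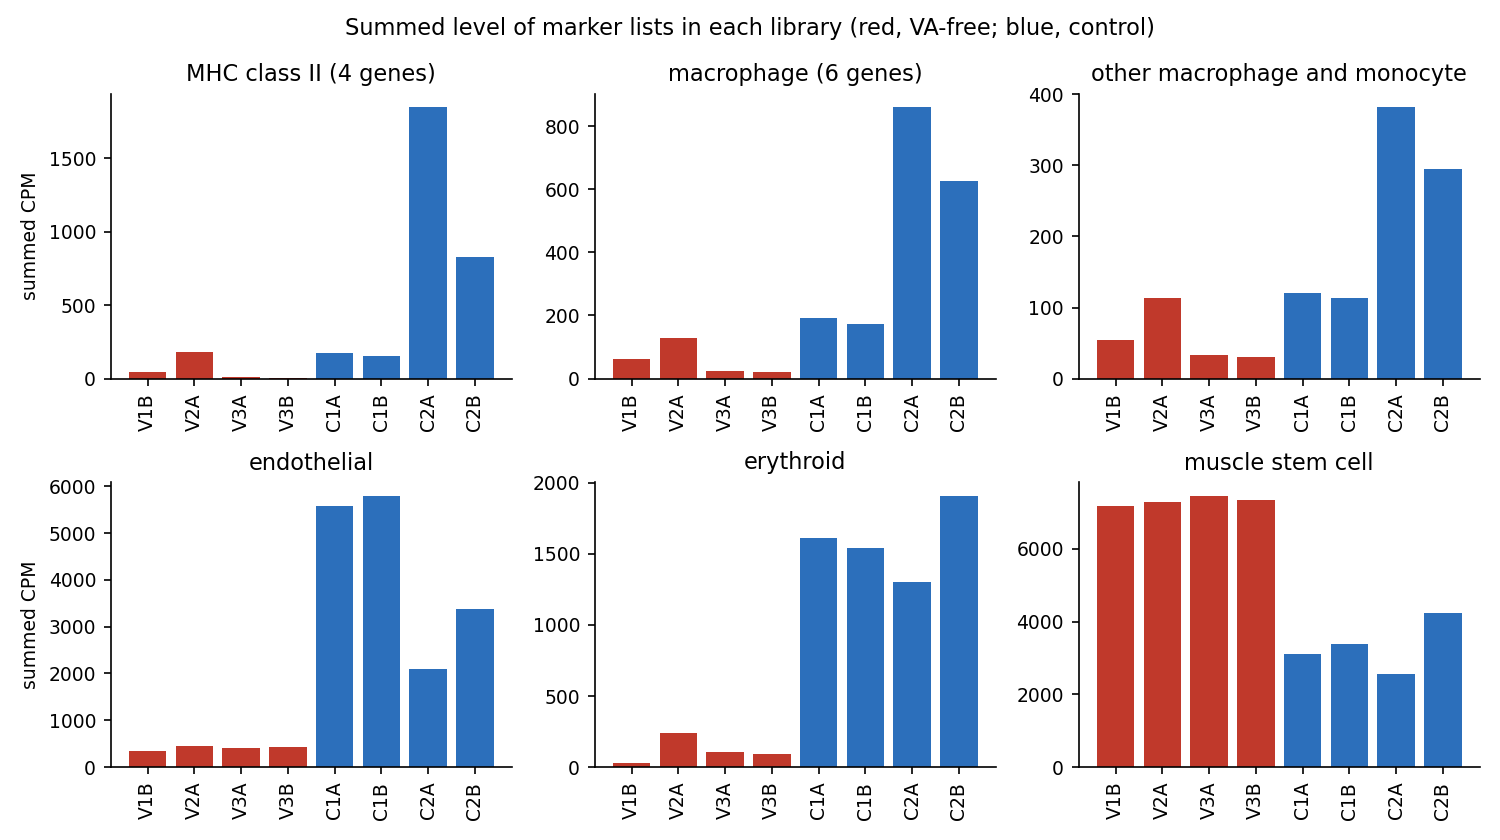
Summed CPM of 6 marker lists in each library (bars, red VA-free, blue control, each axis from 0). The MHC class II and macrophage lists were highest in control 2A (1850 and 860 CPM), the endothelial list in control 1B (5800 CPM), and the MuSC list was higher in each VA-free library.

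The genes whose pattern over the 8 libraries was most like the mean of the MHC class II genes were sought among the 13445 genes that averaged 1 CPM or more. The 5 nearest were Asah2 (Pearson r = 0.990), Cfp (0.987), C1qc (0.985), Fcgr3 (0.984) and Fgd2 (0.980). For the macrophage genes they were Cfp (0.995), C1qc (0.985), Fgd2 (0.974), Pld4 (0.974) and Fcgr2b (0.969). Cfp, which encodes the complement regulator properdin, led or nearly led both lists, at 2.81, 4.91, 0.947 and 0.825 CPM in VA-free libraries 1B, 2A, 3A and 3B and 4.82, 3.47, 13.3 and 14.9 CPM in control libraries 1A, 1B, 2A and 2B. The libraries share mice and diets, so these correlations are a description of 8 libraries from 5 animals.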

How the data were processed

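RNA of GFP-positive MuSCs was reverse transcribed and amplified with SMART-Seq v4, and Nextera XT libraries were read as single 75 base reads. The authors estimated counts per transcript of Ensembl 96 (GRCm38) with kallisto 0.46.2, per the labels, and deposited these estimated counts and TPM per library, without normalization between libraries. The study's own comparison used tximport and DESeq2.

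Estimated counts were added per gene (0.647% to 0.756% lay on transcripts without a gene and were left out), added over the technical libraries of a mouse and rounded. Diets were tested over the 5 mice by the quasi-likelihood method of edgeR 4.0.16 (R 4.3.3), after its filterByExpr filter and TMM scaling, p-values were adjusted by Benjamini-Hochberg over all genes tested, and the SE came from the F statistic. Counting error is small at these totals except for genes under about 1 CPM. DESeq2 1.42.0 and limma 3.58.1 (voom, and log2(TPM + 1) or log2(TPM + 0.1)), other scalings and filters, length corrections, a replicate block and fits without 1 mouse or 1 library were alternatives. Scripts were tested on simulated data. Shared sequence was counted as 31-base words. The genes and lists were chosen with earlier results of these data known. Up to 4 of the most abundant genes of a list, and those past the threshold where fewer than 5 were, were named by rule. Ciita, Cxcl9, Tyrobp, Fcer1g, Ccr2, Ptprc, Mrc1, Cd163, Lyve1, Folr2, Cx3cr1, Timd4, Col3a1, Notch3, Ctss, Cd40, Itgax, H2-Ob and the H2-DM genes were named after their values were seen.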

Additional observations from a re-analysis of the deposited data

How the results depend on the processing

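Over 24 alternatives for each of the 10 genes, 203 of 240 log2 fold changes kept direction and side of the threshold, 26 passed it only in the alternative, 2 (both Lyz2) lost it and 9 reversed. Reversed values were, for Csf1r, -0.24 with the 8 libraries as samples, -0.50 with the length trend removed and -0.20 with limma-voom. They were also -0.83 without VA-free mouse 2, -0.62 without control mouse 1, -0.03 without control 1B and -0.28 without control 2A. The full range of Csf1r over the left-out mice and libraries was -0.83 to 1.42. For C1qa the reversed values were 0.01 with the replicate block and 0.83 without control mouse 2. Its full range over the left-out mice and libraries was -1.73 to 0.83. The count of genes that fell, 2, was 5 with the 8 libraries as samples, 5 with limma-voom, 5 with no filter and 4 with at least 10 counts in every mouse, and 1 to 7 over the left-out mice and libraries. The first of these had more samples and the filters changed the set of tested genes, and the causes of the other counts were not tested. Genes called over the whole table, 7459, were 4291 (without control 2B) to 7740 when a mouse or library was left out. They were 6219 with the 8 libraries as samples, 7677 with limma-voom, 7544 with no filter and 7222 with at least 10 counts in every mouse. These totals join both directions, and the share that was lower in these settings was not counted.

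Deviations from the diet mean of same-numbered mice had correlations of -0.065 and 0.01 over 17997 genes, for 2 pairs. The 2 control mice deviate from their mean by the same amount in opposite directions, so these correlations are not independent. Whether same-numbered mice were handled together was not tested. With the replicate block, 8 of the 10 genes fell past the threshold. VA-free mouse 3, the lowest mouse for 10 of 10 genes, has no same-numbered control mouse. The diet effect in that fit therefore rested on the same-numbered mice alone, and it is not a comparison of all 5 mice. Over all genes, 5242 were called in that fit in both directions together, and the share that was lower was not counted.

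With 2 control mice, the spread on that diet rests on 1 difference, and several levels were under 1 CPM, such as those of H2-Aa in VA-free 3A and 3B, on 18 and 33 counts.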
